A study of Arabidopsis thaliana with 12 samples.

Results

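Transcripts of 5 nuclear genes for the photosystems and their light-harvesting antenna were followed in Arabidopsis thaliana: LHB1B2 (AT2G34420) of the antenna, PSAN (AT5G64040) of photosystem I, and PSBW (AT2G30570), PSBY (AT1G67740) and PSB27 (AT1G03600) of photosystem II. They were taken as named genes that each had a probe of their own on the array, 5 of 692 probes with 1 gene and of 3439 probes in all. The array was hybridised with total RNA of 6 samples of wild-type plants (WT, ecotype Columbia 0) and 6 of the mutant pete1, also Columbia 0, which is without an isoform of plastocyanin. Both genotypes grew on MS medium, a standard plant culture medium, and the labels give no tissue, no plant age, no mutant allele and no account of how the samples numbered 1 to 6 were drawn. The p-values below can speak only for the spread of these samples, part or all of which may be technical.

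In the thylakoid membrane of the chloroplast, photosystem II takes electrons from water and passes them through the cytochrome b6f complex to plastocyanin, a small copper protein of the thylakoid lumen. Plastocyanin hands them to photosystem I, which reduces ferredoxin. Antenna proteins bind chlorophyll and feed light energy to both photosystems. The comparison asks which transcripts differ when a plastocyanin isoform is missing.

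The deposited values are linear intensities in arbitrary units, 1 per probe and sample, already scaled in a way that the sources used here do not give. The sample medians lay between 0.485 and 0.627 in WT and between 0.279 and 0.331 in pete1, and the brightest 1% of probes (34) held 18.8% to 25.0% of the summed intensity in WT and 29.7% to 34.1% in pete1. Part of any difference therefore depends on the scaling: the median log2 difference of all probes was -0.73 as deposited, -0.01 after quantile normalisation of log2 values, the scale of the main fit, and 0.08 after median centring. No member was at 0 in any sample, and none reached the upper limit of 100. Consecutive numbers of a genotype (1 and 2, 3 and 4, 5 and 6) resembled each other more than other samples did, with Spearman correlations of 0.955 to 0.980 against 0.849 to 0.901, so the results are also given with these pairs as a random block and as averages. PETE1 had no probe of its own and neither had any of 10 root marker genes, so the genotype labels and the share of root in the samples were not checked.

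Of the 5 genes, LHB1B2 passed as higher in pete1 and PSB27 as lower, and PSAN, PSBW and PSBY did not pass (limma on quantile-normalised log2 values, adjusted p under 0.05 over all probes). Among all 3439 probes 21.7% passed, 10.7% as higher and 11.0% as lower, so these calls are not read as particular to the 5 genes. The members' median log2 difference was 0.39, the value of PSBW, against -0.01 for all probes. It moved with the scaling: 0.05 after cyclic loess, another normalisation, and 1.44 after median centring, against -0.02 and 0.08 for all probes. As deposited, LHB1B2 and PSBW passed as higher and PSB27 as lower, while 3.34% of all probes passed as higher and 50.8% as lower, 54.1% together. When those pairs entered as a random block, where 4.74% of all probes passed, LHB1B2 alone of the 5 passed. With consecutive numbers averaged to 3 against 3, where 0.204% of probes passed, none of the 5 did.

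LHB1B2, which encodes an Lhcb1 protein of the major chlorophyll a/b-binding antenna of photosystem II, had the largest difference of the 5. Its intensity was 6.91 at the lowest, 10.5 at the median and 12.4 at the highest in WT, and 25.9, 32.5 and 35.3 in pete1. Every pete1 sample lay above every WT sample, which as deposited held for 1.60% of all probes, and after normalisation for 6.48%. The mean rose from 10.1 ± 2.3 (SD, n = 6) to 31.1 ± 3.62, a ratio of 3.08. On the normalised log2 scale the difference was 1.19 (SE 0.16, limma adjusted p = 0.000743), and as deposited it was 1.65 (SE 0.16).

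Because the genotypes did not overlap, pete1 lay above WT in LHB1B2 however the samples are matched, so the 6 numbers add no separate evidence. The labels do not say that equal numbers belong together. At equal numbers, the intensity ratio of pete1 over WT ran from 2.29 for number 2 to 4.75 for number 4. Within consecutive numbers the normalised log2 difference was 0.83 for samples 1 and 2, 1.64 for samples 3 and 4, and 1.08 for samples 5 and 6. The larger difference in samples 3 and 4 came with the lowest WT values, 8.23 and 6.91. In rank the pete1 samples were the closer together, at 11 to 14 among the probes of their sample, with 1 the brightest, against 24 to 55 in WT. In intensity their SD was the larger (3.62 against 2.3), though smaller as a share of the mean (11.7% against 22.7%). Quantile normalisation gave pete1 samples 1, 2, 3 and 6, all at rank 14, the same value. Under the random block the limma adjusted p was 0.0185, and with averages it was 0.144 after normalisation and 0.0419 as deposited. In that last fit 10.6% of all probes passed, 12 probes as higher and 351 as lower. LHB1B1 (AT2G34430), another Lhcb1 gene, is the next protein-coding gene on the chromosome in the RefSeq table of TAIR10.1. Whether its transcripts or those of other Lhcb1 genes also bind the LHB1B2 probe was not tested.

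**Figure D1:**
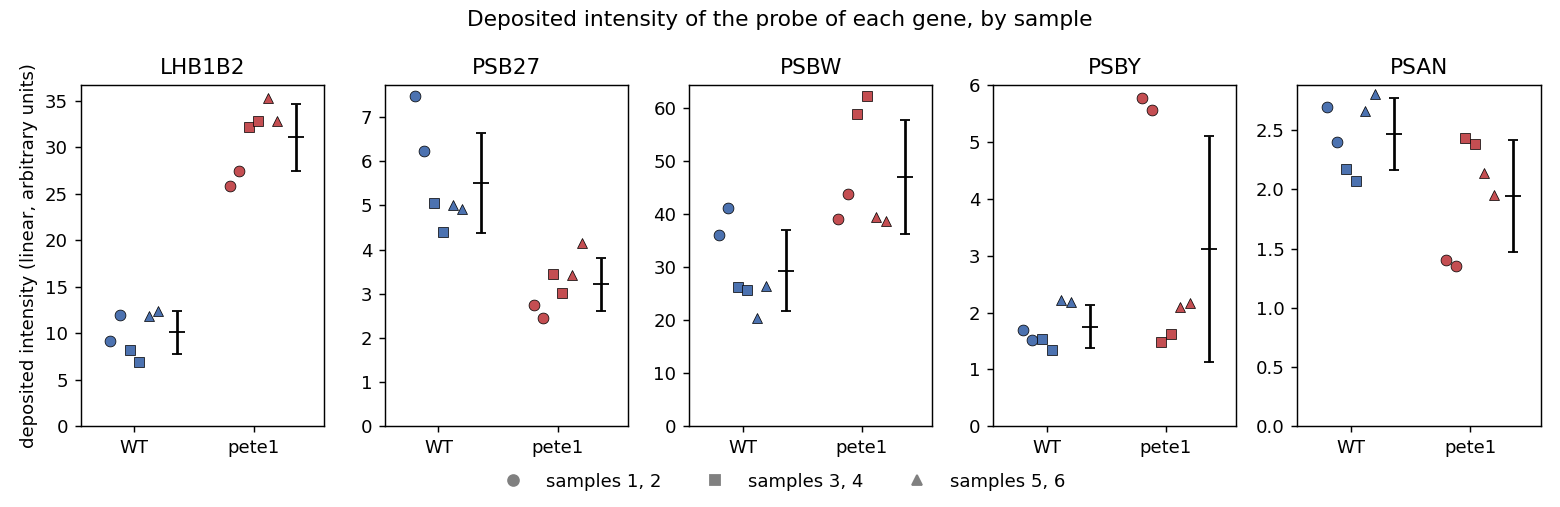
Deposited intensity (linear axis from 0, arbitrary units, a separate scale for each gene) of the 5 probes in 6 WT and 6 pete1 samples; marker shapes show consecutive sample numbers, and bars give the mean and SD. The pete1 samples of LHB1B2 (25.9 to 35.3) lie above all WT samples (6.91 to 12.4), those of PSB27 (2.45 to 4.16) lie below all WT samples (4.41 to 7.47), and the high pete1 values of PSBY (5.78 and 5.56) belong to samples 1 and 2.

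PSB27, a factor of the thylakoid lumen that binds photosystem II during its assembly and repair, was lower in pete1 in the intensities. WT samples held 4.41 at the lowest, 5.03 at the median and 7.47 at the highest, and pete1 samples 2.45, 3.22 and 4.16. No pete1 sample reached the WT range, but this was common as deposited, where 32.8% of all probes lay lower without overlap, and less so after normalisation, with 6.05%. The mean went from 5.51 ± 1.13 (SD, n = 6) to 3.21 ± 0.603, a ratio of 0.582. The normalised log2 difference was -0.97 (SE 0.20, limma adjusted p = 0.00698).

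The difference of PSB27 was unequal among the samples. It was -1.80 on the normalised log2 scale in samples 1 and 2, where WT was at its highest and pete1 at its lowest, -0.65 in samples 3 and 4, and -0.45 in samples 5 and 6. Without samples 1 and 2 of both genotypes it was -0.59 and still passed (limma adjusted p = 0.0132), in a fit where 16.1% of all probes passed. Under the random block the limma adjusted p was 0.0600, and with averages 0.240. As deposited, the random block gave a limma adjusted p of 0.0400, with 29.8% of all probes passing, and the averages 0.0737.

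Whether PSB27 was lower depended on the scaling. After median centring its log2 difference was 0.03 (SE 0.11, limma adjusted p = 0.833). Relative to the median of its own sample, the probe was at 10.1 ± 1.03 (SD, n = 6) for WT and 10.3 ± 1.37 for pete1. Its rank in the sample was 44 to 98 in WT and 116 to 225 in pete1, without overlap.

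**Figure D2:**
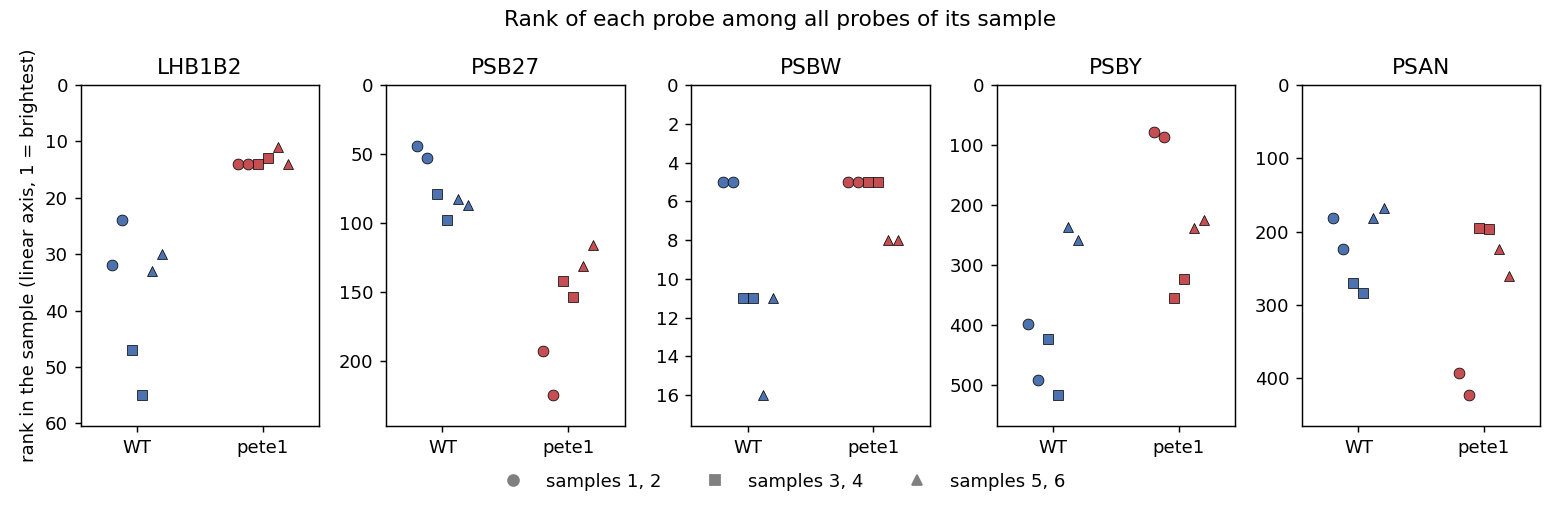
Rank of each probe among the 3439 probes of its sample (linear axis, 1 the brightest at the top, a separate scale for each gene) in WT and pete1; marker shapes show consecutive sample numbers. LHB1B2 held ranks 24 to 55 in WT and 11 to 14 in pete1, PSB27 held 44 to 98 and 116 to 225, and the ranks of PSBW, PSBY and PSAN overlapped between the genotypes.

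PSBW, a small membrane subunit of photosystem II that helps hold the supercomplexes of photosystem II and its antenna together, was higher in pete1 as deposited and did not pass after normalisation. Its intensity was 20.4 at the lowest, 26.3 at the median and 41.1 at the highest in WT, and 38.7, 41.7 and 62.3 in pete1. The genotypes overlapped through WT sample 2 at 41.1, although pete1 was the higher of the pair in all 6 numbers. The mean went from 29.4 ± 7.68 (SD, n = 6) to 47.1 ± 10.7, a ratio of 1.6. The log2 difference was 0.69 as deposited (SE 0.19, limma adjusted p = 0.0109) and 0.39 after normalisation (SE 0.22, limma adjusted p = 0.226).

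For PSBW the scaling and the sample numbers both mattered. It ranked 5 in samples 1 and 2 of both genotypes, so that quantile normalisation gave these 4 samples the same value, and the difference there was 0.00, against 0.76 in samples 3 and 4 and 0.42 in samples 5 and 6. In WT the rank ran from 5 to 16 and in pete1 from 5 to 8. At such ranks a step of a few places carries a large part of the normalised difference. Cyclic loess gave a log2 difference of 0.05 (limma adjusted p = 0.906) and median centring 1.5 (limma adjusted p = 8.15e-05), the latter in a fit where 19.3% of all probes passed as higher and 10.4% as lower. As deposited and without samples 1 and 2, which was added once the data had been seen, the difference was 0.99 (limma adjusted p = 0.00734), with 3.84% of all probes passing as higher. In the same kind of fit the call was lost without samples 3 and 4 (0.43, limma adjusted p = 0.155) and held without samples 5 and 6 (0.66, limma adjusted p = 0.0453). As deposited with the random block it no longer passed (limma adjusted p = 0.0708).

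PSBY, a small thylakoid membrane protein of photosystem II, whose precursor in Arabidopsis is cut into a pair of related proteins, was set apart by pete1 samples 1 and 2. Its intensity was 5.78 and 5.56 in these, and 1.48 to 2.16 in the other pete1 samples. In WT it was 1.35 at the lowest, 1.62 at the median and 2.23 at the highest, with samples 1 and 2 at 1.70 and 1.53. The high values thus appeared in pete1 alone within that pair of numbers. The WT mean was 1.76 ± 0.371 (SD, n = 6), that of pete1 3.12 ± 1.99, and the difference did not pass (0.81 on the normalised log2 scale, SE 0.34, limma adjusted p = 0.116).

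Within consecutive numbers, the normalised log2 difference of PSBY was 1.99 in samples 1 and 2, 0.38 in samples 3 and 4, and 0.07 in samples 5 and 6. Without samples 1 and 2 it was 0.23 (SE 0.25, limma adjusted p = 0.570), and as deposited 0.03 (SE 0.22, limma adjusted p = 0.952). The mean of 6 pete1 samples thus describes none of them. Median centring, which adds the same amount to the deposited log2 difference of every gene, gave 1.44 (limma adjusted p = 0.0182). What set pete1 samples 1 and 2 apart was not tested.

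PSAN, is a lumenal subunit of photosystem I that is needed for efficient electron transfer from plastocyanin. Its intensity was 2.07 at the lowest, 2.53 at the median and 2.81 at the highest in WT, and 1.35, 2.05 and 2.43 in pete1. The genotypes overlapped, with means of 2.47 ± 0.302 (SD, n = 6) for WT and 1.94 ± 0.473 for pete1. The normalised log2 difference was -0.27 (SE 0.18, limma adjusted p = 0.334), so no difference of PSAN was detected at this spread.

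The sign of the difference of PSAN varied with the sample numbers. It was -0.80 on the normalised log2 scale in samples 1 and 2, 0.37 in samples 3 and 4, and -0.37 in samples 5 and 6. The lowest pete1 values, 1.40 and 1.35, were again those of samples 1 and 2, the pete1 samples in which PSBY was high and PSB27 low. Without samples 1 and 2 the difference was 0.00 (SE 0.16), and after median centring it was 0.44 (limma adjusted p = 0.0459).

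**Figure D3:**
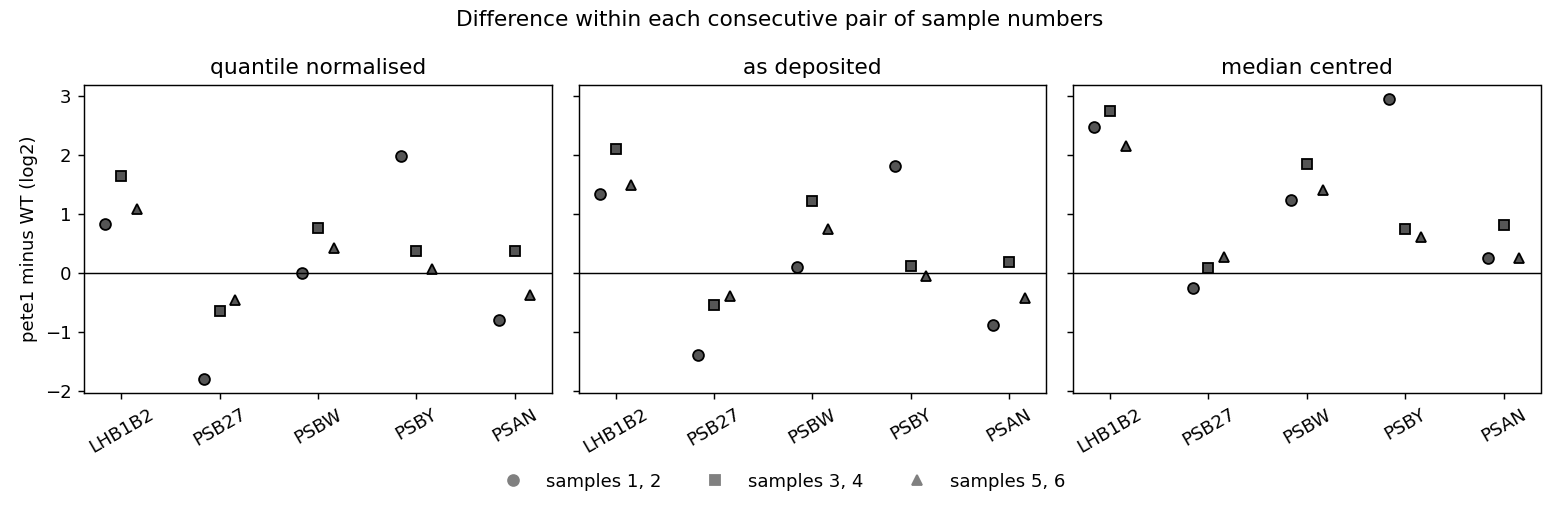
Difference of pete1 minus WT (log2) for each gene within samples 1 and 2 (circles), 3 and 4 (squares) and 5 and 6 (triangles), after quantile normalisation, as deposited and after median centring. LHB1B2 was above 0 in every pair under all 3 scalings. PSB27 was below 0 in every pair after quantile normalisation and as deposited (above 0 in 2 of 3 pairs after median centring). After quantile normalisation and as deposited, both follow from the lack of overlap between the genotypes. PSBY stood high in samples 1 and 2 (1.99 after normalisation).

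Ratios between members of the same sample do not depend on a factor shared by all probes of that sample. They can still change with the spread of the intensities, which differed between the genotypes, as described above for the brightest probes. Since probes differ in brightness for the same amount of RNA, the change of a ratio between genotypes can be read, not its level. LHB1B2 over PSB27 was 5.37 times as high in pete1 as in WT (geometric means), and LHB1B2 over PSAN 4.06 times. In both, every pete1 sample lay above every WT sample. The ratio of PSBW over PSB27 was 2.77 times as high, also without overlap, and that of PSAN over PSBW was 0.478 times as high, likewise without overlap. LHB1B2 over PSBW was 1.94 times as high, with an overlap. Of the 10 ratios between members, 4 did not overlap between the genotypes, and of the ratios between any pair of probes without a 0, 17.4% did not. These 4 each set a brighter probe, LHB1B2 or PSBW, against a dimmer one, PSB27 or PSAN. The 17.4% covers pairs of any brightness, and how far brightness accounts for the 4 was not tested. The ratios between members were given no test, and all 4 that involve LHB1B2 were higher in pete1 on average.

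The ratios with PSBY again followed samples 1 and 2. LHB1B2 over PSBY was 2.03 times as high in pete1 with all samples and 3.41 times without samples 1 and 2, and PSBW over PSBY 1.05 and 1.94 times. PSAN over PSBY was 0.501 times as high with all samples and 0.904 times without them. The ratio of PSAN over PSB27, a photosystem I and a photosystem II transcript that both had lower means in pete1, was 1.32 times as high with all samples and 1.28 times without samples 1 and 2.

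**Figure D4:**
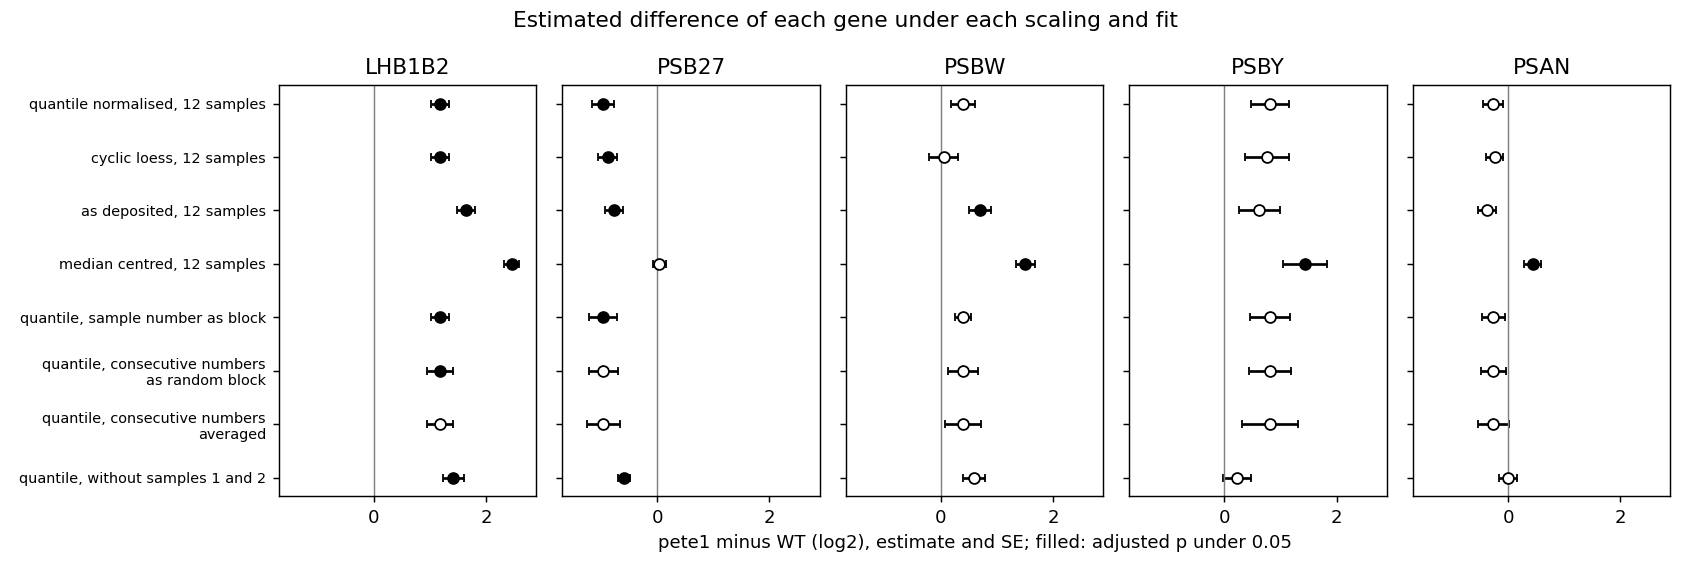
Estimated pete1 minus WT difference (log2, points) and its standard error (bars) for each gene under 8 scalings or fits; filled points have a limma adjusted p under 0.05. LHB1B2 stayed above 0 in all 8 (1.18 to 2.46), and PSB27 lay at 0.03 after median centring and below 0 in the other fits.

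The genes whose normalised values ran most like each member were sought among the 594 other single-gene probes without a 0, by Pearson correlation over the 12 samples. The 12 points share the genotype difference and the likeness of consecutive numbers. These correlations, and the calls of the genes chosen by them, are therefore descriptions and no separate evidence. Nearest to LHB1B2 were AT4G05030 (r = 0.918), AT4G31930 (r = 0.915) and AILP1 (AT5G19140, r = 0.872), all 3 of which passed as higher. Nearest to PSB27 were AT5G40030 (r = 0.979), AT2G23160 (r = 0.961) and AT5G39980 (r = 0.959), and all 3 passed as lower. As deposited, the log2 differences were 0.28, 1.07 and 0.71 for the 3 nearest LHB1B2 and -1.36, -1.44 and -0.78 for the 3 nearest PSB27, in the order named. PSBY ran with AT2G40980 (r = 0.939), AT3G29185 (r = 0.929) and AT1G07040 (r = 0.921). Without samples 1 and 2, these correlations were 0.820, 0.715 and 0.541, and as deposited the log2 differences of the 3 were 0.36, -0.44 and -0.74, against 0.62 for PSBY. PSAN ran with AT4G21770 (r = 0.929), AT3G28460 (r = 0.915) and AT3G20490 (r = 0.907), with -0.65, -1.24 and -1.46 as deposited, against -0.37 for PSAN. PSBW ran with AT4G35980 (r = 0.884), THIC (AT2G29630, a thiamin synthesis enzyme, r = 0.844) and AT2G48130 (r = 0.842). As deposited these 3 lay below 0, at -0.60, -0.30 and -0.79, against 0.69 for PSBW. None of the members was among the nearest 3 of another, and between members r ran from -0.718 for PSBY with PSB27 to 0.596 for PSAN with PSB27.

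Of 104 loci listed for photosynthesis, 12 had a probe of their own, the 5 members and 7 others. Of the 12 photosystem I, 18 photosystem II and 21 antenna loci on the lists, only the members were measured by such a probe, and none of the 16 electron carriers and ATP synthase subunits was. Of the 7 others, 4 passed as higher and 1 as lower after normalisation, beside the 10.7% and 11.0% of all probes given above. On that scale alone, their median log2 difference was 0.38. As deposited, 1 of the 7 passed as higher and 3 as lower, beside the 3.34% and 50.8% of all probes. PRK, phosphoribulokinase of the Calvin cycle, rose (1.58 on the normalised log2 scale, SE 0.22, limma adjusted p = 0.000977) and, like LHB1B2, was also higher as deposited (1.0). ATAB2, a factor for the translation of photosystem proteins, passed at 1.03, PIFI, a protein of the NDH electron route, at 0.73 and AT3G29185 at 0.38. The direction of these 3 turned as deposited. There PIFI (-0.52, limma adjusted p = 0.00531) and AT3G29185 (-0.44, limma adjusted p = 0.00336) passed as lower, and ATAB2 was at -0.27 without passing (limma adjusted p = 0.439). PIFI and ATAB2 were dim, with mean intensities of 0.171 and 0.151 in WT and 0.119 and 0.128 in pete1. The sample medians averaged 0.544 in WT and 0.309 in pete1. In the fit with numbers as a fixed block (replicate block), where 21.6% of all probes passed, the call of AT3G29185 was lost (limma adjusted p = 0.0738). NdhS, a subunit of the NDH complex, passed as lower (-0.36) and had a log2 difference of 0.01 as deposited, and SBPASE (-0.09) and NdhN (-0.67) did not pass. As deposited NdhN passed as lower (-1.28, limma adjusted p = 0.00857), and SBPASE did not (-0.61). Under the random block only PRK of the 7 passed (limma adjusted p = 0.00865), and with averages none of them did (PRK had a limma adjusted p of 0.158, the others of 0.240 to 0.937).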

How the data were processed

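RNA of 6 WT and 6 pete1 samples was measured on expression arrays. The deposited values are linear intensities scaled by the authors; the reader, background correction and scaling method are not given in the sources used. Genes were named from the platform annotation and updated through gene identifiers with the RefSeq table of TAIR10.1. Of 3439 probes, 692 had 1 gene (690 matched), 870 several and 1877 none. The files name no genome build, so no coordinates are given.

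The smallest positive intensity (4.74e-05) was added before log2, and log2 values were quantile normalised. Each probe was fitted with limma 3.58.1 in R 4.3.3 (lmFit, eBayes, two-sided, Benjamini-Hochberg over all probes, threshold 0.05; statmod 1.5.0). A fold change lies on that scale. Ratios and correlations were computed with pandas 2.3.3. The fits were tested on simulated data. The number of arrays limits the precision.

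Deviations from the genotype mean correlated between equal numbers of the genotypes at 0.221 to 0.452, in 6 of 6 cases. Unequal numbers were not compared in this way, and the labels do not say what the numbers mark. The main fit had no block, and a fit with the sample number as a block was run beside it. Other alternatives were deposited values, median centring, cyclic loess, another offset, a filter on zeros, consecutive numbers as a random block or averaged, and fits without a sample or a pair of numbers. Members, lists and alternatives were chosen with earlier results of these data known. Named genes were the 5 members, the 3 most alike single-gene probes of each, and all listed loci with a probe of their own.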

Additional observations from a re-analysis of the deposited data

How the results depend on the processing

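Of all 3439 probes, 746 passed in the fit of 12 samples. The count was 1861 as deposited, 163 with consecutive numbers as a random block, 7 with their averages, and 363 with averages as deposited. As deposited, and chosen after seeing the data, it was 1579 without samples 1 and 2, 1618 without samples 3 and 4 and 1726 without samples 5 and 6. With the sample number as a replicate block it was 743, and no member's call changed. In that fit the limma adjusted p was 0.00635 for LHB1B2 and 0.0440 for PSB27. Leaving out 1 sample gave 550 to 722, and log2 differences of 1.06 to 1.3 for LHB1B2, -1.07 to -0.86 for PSB27, 0.27 to 0.50 for PSBW, 0.60 to 0.94 for PSBY and -0.33 to -0.16 for PSAN, each on its side of the threshold.

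The call of LHB1B2 was lost in averages (1.19, limma adjusted p = 0.144). That of PSB27 was lost with the random block and in averages (-0.97 in both) and in averages as deposited (-0.78). It was also lost after median centring, where the estimate was smaller than its SE (0.034, SE 0.11). PSBW gained a call as deposited (0.69), after median centring (1.5), and as deposited without samples 1 and 2 (0.99) or 5 and 6 (0.66). PSBY gained one after median centring (1.44). PSAN turned and passed as higher after median centring (0.44), and passed as lower as deposited without samples 3 and 4 (-0.65). Without samples 1 and 2 its estimate was far smaller than its SE (0.0032, SE 0.16), so no direction is read there. The other alternatives run changed no call or direction of the 5 genes. The causes of these changes were not tested. No measure of signal over background was used, so its limit on dim values is unknown.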
